A study of Mus musculus with 6 samples.

Results

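Alveolar macrophages take their identity from a small set of lung signals and nuclear factors. The 9 genes described here are 6 transcription factor genes (Pparg, Bhlhe40, Bhlhe41, Cebpb, Spi1 and Maf) and 3 receptor genes (Csf2ra, Csf2rb and Tgfbr2), chosen by name for their role in setting alveolar against interstitial macrophage fate. Earlier results of these data were known when they were chosen. All 9 had a row among the 23282 rows of the count table. RNA was measured in 3 Sdha-KO and 3 wildtype libraries of mature alveolar macrophages, sorted from mouse lung as CD45+ CD11c+ F4/80+ SiglecF+ CD11b- cells. Sdha-KO mice carried floxed Sdha with LysM-Cre, a driver active in myeloid cells generally and not limited to the lung. Whether wildtype mice carried Cre or floxed alleles, and the age and sex of the mice, are not given in sources used here. Each of 3 batches, as the labels call them, held 1 library of each genotype. Nothing says whether a library came from 1 mouse or several, so a p-value here reflects library-to-library spread, which may be technical.

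GM-CSF, made by the alveolar epithelium, binds a receptor formed by a specific alpha chain (Csf2ra) and a signalling beta chain (Csf2rb), and drives fetal monocytes in the lung to become alveolar macrophages. One outcome of that signal is PPAR-gamma (Pparg), a nuclear receptor that switches on lipid handling genes. TGF-beta, sensed through a receptor pair that includes Tgfbr2, is needed for the same fate. Bhlhe40 and Bhlhe41 are related repressors that maintain self-renewal and identity, and Maf, which restrains self-renewal, is low in alveolar macrophages. PU.1 (Spi1) and C/EBP-beta (Cebpb) are broader myeloid factors.

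Libraries held 5400160 to 8472907 counts. A single row, Rn45s, held from 20.9% of them in Sdha-KO replicate 1 to 57.6% in wildtype replicate 2. Genes with a count ran from 5438 in Sdha-KO replicate 1 to 13050 in wildtype replicate 3. The batch 1 libraries lacked many transcripts. Among the 3447 genes that reached 100 counts in every library of batches 2 and 3, 612 had no count in Sdha-KO replicate 1 and 136 had none in wildtype replicate 1. Sdha itself had 313, 113 and 153 counts in Sdha-KO replicates 1 to 3, against 457, 295 and 567 in wildtype replicates 1 to 3. Its level, in CPM (counts scaled for library size and composition), was 23.3 ± 2.59 in Sdha-KO and 64.6 ± 8.13 in wildtype libraries (SD, n = 3 each). That difference missed the threshold (edgeR adjusted p = 1.00), although the groups did not overlap. Without both batch 1 libraries the edgeR adjusted p was 0.194, and with a block for replicate number as well it was 0.0327. 3' reads can also lie outside the deleted exons. The source of the Sdha counts in Sdha-KO libraries was not tested. The genes of the sort were checked, and 4 of the 5 with a row had negative estimates, none past the threshold with 6 libraries. Without both batch 1 libraries Siglecf and Ptprc missed it (edgeR adjusted p = 0.0942 and 0.336). With the block as well both passed as lower in Sdha-KO (edgeR adjusted p = 0.0022 and 0.0393). Ptprc, encoding CD45, averaged 424 CPM in Sdha-KO and 718 CPM in wildtype libraries, Itgax (CD11c) 209 and 375 CPM, and Adgre1 (F4/80) 46.2 and 79.5 CPM. Ptprc, Itgax and Adgre1 each overlapped between genotypes. Adgre1 was at 0, 56.7 and 82.0 CPM in Sdha-KO and at 76.8, 91.2 and 70.5 CPM in wildtype replicates 1 to 3. Without both batch 1 libraries its log2 fold change was -0.21 (edgeR adjusted p = 0.937). Siglecf was at 0, 39.6 and 45.3 CPM in Sdha-KO replicates 1 to 3 and at 103, 138 and 132 CPM in wildtype replicates 1 to 3, while Itgam, which encodes CD11b, was at 0, 35.3 and 22.5 CPM in Sdha-KO and at 9.80, 7.32 and 1.40 CPM in wildtype replicates. Exons of Itgam overlap the gene Gm49368 on the same strand, so the Itgam count is uncertain.

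None of the 9 genes passed the test between genotypes. Of 9963 genes tested with edgeR's quasi-likelihood test, 5 (0.0502%) passed a Benjamini-Hochberg adjusted p of 0.05. The test covered 8 of the 9 genes, and Maf was left out by the filter on low counts. Among those 8, 4 had a positive and 4 a negative log2 fold change, from -0.39 for Spi1 to 0.61 for Bhlhe41. Their median was -0.01, against -0.13 for all tested genes, of which 45.0% were positive. In all 9 genes the libraries of the 2 genotypes overlapped. Over all tested genes, Sdha-KO lay wholly above wildtype in 5.04% and wholly below it in 9.27%, so an absence of separated groups among so few genes is close to the background.

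**Figure D1:**
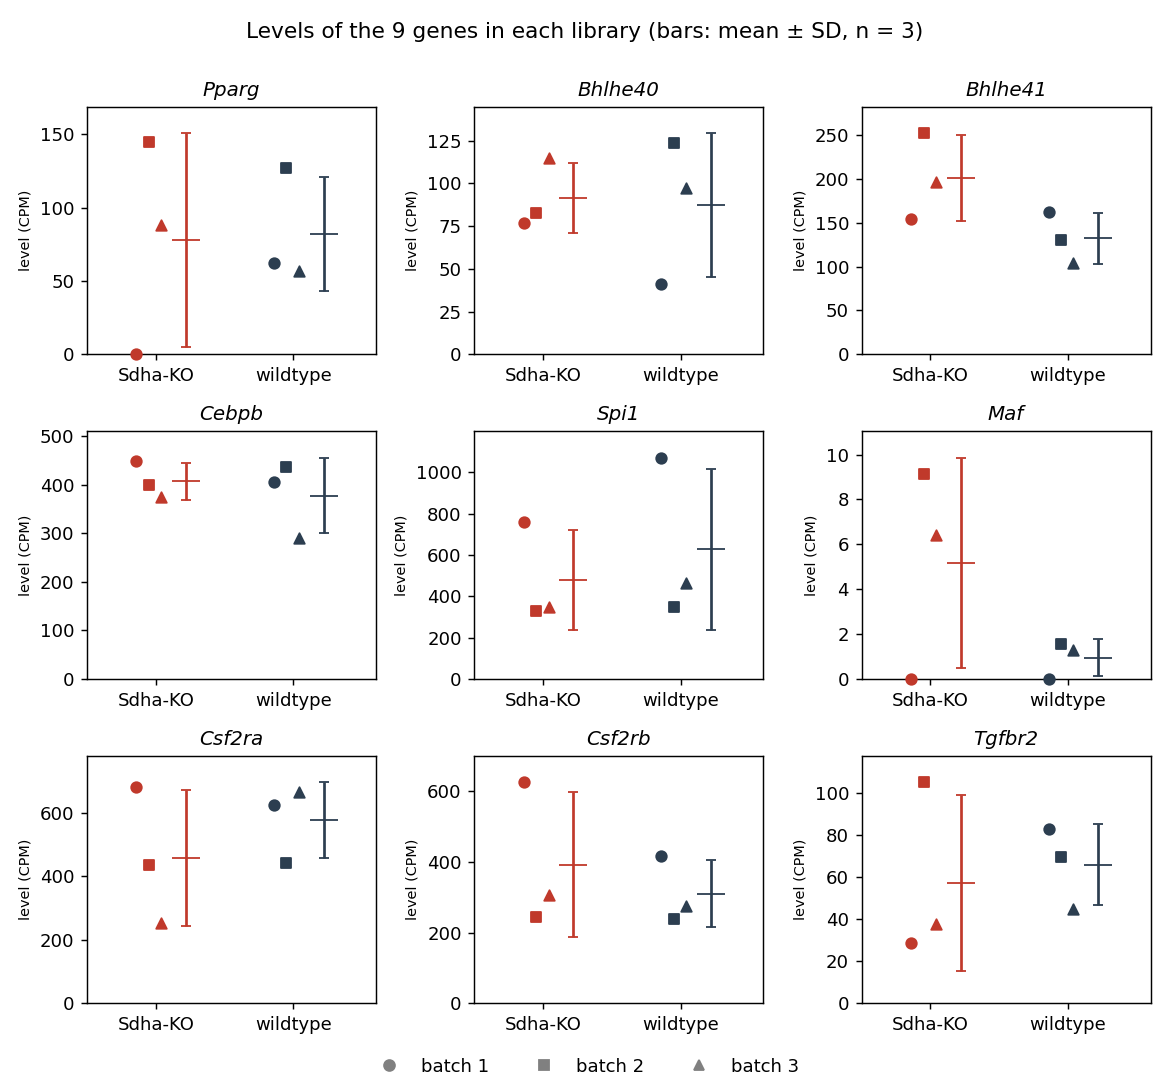
Level of each of the 9 genes in CPM (vertical axes from 0, each with its own scale) in the 3 Sdha-KO and 3 wildtype libraries. Symbols mark the batch, and the bars give mean ± SD (n = 3). Pparg in the batch 1 Sdha-KO library is at 0.501 CPM, and Maf is at 0 in both batch 1 libraries.

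The genes differed widely in level. Because the kit counts reads near the 3' end, CPM is taken here without division by length. Averaged over the 6 libraries, Spi1 stood highest at 553 CPM and at rank 112 of all rows. Csf2ra followed at 518 CPM, Cebpb at 392.4 CPM and Csf2rb at 351 CPM. The order among these 4 was not firm, since Spi1 exceeded Csf2ra in 3 of 6 libraries, Csf2ra exceeded Cebpb in 5 and Cebpb exceeded Csf2rb in 4. Bhlhe41 averaged 166 CPM and lay above Bhlhe40, at 89.4 CPM, in 6 of 6 libraries. Bhlhe40, Pparg (80.0 CPM) and Tgfbr2 (61.5 CPM) were not separable, as Bhlhe40 exceeded Pparg in 3 and Pparg exceeded Tgfbr2 in 4 of 6 libraries. Maf was lowest in every library, with a mean of 3.06 CPM and rank 9326.

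Pparg, the nuclear receptor induced by GM-CSF, lies on chromosome 6 (115360951 to 115490399, plus strand; mm10, GENCODE M21, as for all gene positions here) and was present in both genotypes in batches 2 and 3. It had 6, 779 and 592 counts in Sdha-KO replicates 1 to 3, against 506, 572 and 449 counts in wildtype replicates 1 to 3. In CPM this was 0.501, 145 and 88.2 in Sdha-KO and 62.0, 127 and 57.2 in wildtype libraries. Sdha-KO was therefore higher than its batch partner in batches 2 and 3 (by 0.19 and 0.62 on the log2 scale) and far lower in batch 1 (-5.97). The fitted log2 fold change was -0.08 with a 95% interval of -3.31 to 3.16 (edgeR adjusted p = 1.00), so these libraries allow a large change in either direction. Without Sdha-KO replicate 1 the estimate was 0.51 (edgeR adjusted p = 1.00). Other genes were also near 0 in that library. Among the 987 genes that reached 400 counts in every library of batches 2 and 3, a limit set after seeing Pparg's counts, 61 (6.18%), Pparg included, had at most 10 counts in Sdha-KO replicate 1 and 3 (0.304%) in wildtype replicate 1.

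The 250 bases before one of Pparg's annotated starts (chromosome 6, 115421816 to 115422065, plus strand) are shown because C/EBP factors, the family of Cebpb, are known regulators of this gene in fat cells. The window lies within the gene's span given above, since Pparg has several starts. Sequences are from RefSeq (GRCm38.p6), and 5 of the 9 genes matched the promoter table used here. Capitals mark matches to TTNNGCAA, a C/EBP-type motif searched on both strands, which occurs in 9.56% of all 32851 such windows. The windows of the other 2 Pparg starts had no match, and that of Tgfbr2 had 1.
Pparg: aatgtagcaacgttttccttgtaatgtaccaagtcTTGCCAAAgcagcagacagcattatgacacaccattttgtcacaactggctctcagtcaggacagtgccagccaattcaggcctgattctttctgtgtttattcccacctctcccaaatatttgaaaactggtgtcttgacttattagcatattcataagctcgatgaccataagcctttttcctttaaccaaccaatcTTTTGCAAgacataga

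Bhlhe41, one of the pair of identity-keeping repressors, lies on chromosome 6 (145858243 to 145865558, minus strand) and had the highest positive estimate of the 8 tested genes. Its level was 155, 251 and 196 CPM in Sdha-KO replicates 1 to 3, against 162, 130 and 104 CPM in wildtype replicates 1 to 3. The lowest Sdha-KO library, from batch 1, lay just under the highest wildtype library, also from batch 1, and the other 2 Sdha-KO libraries lay above all wildtype ones. Mean levels were 201 ± 48.6 CPM in Sdha-KO and 132 ± 28.8 CPM in wildtype libraries (SD, n = 3 each). The fitted difference was 1.52-fold (log2 fold change 0.61, SE 0.396, 95% interval -0.26 to 1.47) and did not pass (edgeR adjusted p = 1.00). Within batches the log2 differences were -0.07, 0.95 and 0.91 for batches 1 to 3.

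Leaving out both batch 1 libraries gave a clearer estimate for Bhlhe41. With 2 libraries a genotype the log2 fold change was 0.95 (SE 0.272, 95% interval 0.31 to 1.58, edgeR adjusted p = 0.288), a setting in which 27 of 10757 genes (0.251%) passed and none of the 9 did. With a block for replicate number as well, 324 genes (3.01%) passed and Bhlhe41 was the 1 of the 9 among them (log2 fold change 0.94, SE 0.234, edgeR adjusted p = 0.0286). That fit has 1 residual degree of freedom per gene, a limit shared by every other gene said here to pass it. In the same libraries the female-specific transcript Xist had 498 and 822 counts in Sdha-KO replicates 2 and 3 and 4608 and 6055 in wildtype replicates 2 and 3. The Y-linked Ddx3y had 354 and 432 against 0 and 143. Sdha-KO replicates 2 and 3 and wildtype replicate 3 thus had counts of both transcripts, and the reason was not tested. Xist itself passed that fit (log2 fold change -3.05, edgeR adjusted p = 3.45e-07). The part of sex and that of genotype cannot be told apart there, for Bhlhe41 or any other gene. In batch 1, whose libraries lacked many transcripts, the order was reversed. Xist had 2683 counts in Sdha-KO and 0 in wildtype replicate 1, and Ddx3y 0 and 222. Sex marks thus differed within every batch pair, which bears on the within-batch differences and the fits over 6 libraries. Exons of Bhlhe41 overlap an unverified transcript on the other strand, and use of strand in counting is not given in sources used here, so its count is uncertain.

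Members of this family bind the E-box CACGTG and are known to repress their own genes, so the bases before Bhlhe41 are given with the E-box in capitals. The RefSeq window of 250 bases (chromosome 6, 145865421 to 145865670, minus strand) ends at a start further into the gene than that of GENCODE M21, and 138 of its bases lie inside the GENCODE gene. The other 112 bases (145865559 to 145865670) are printed. The motif, which reads the same on both strands, occurs in 6.02% of all such windows. No E-box was found in the windows of Pparg, Cebpb, Tgfbr2 or Csf2ra, and the PU.1-type motif GAGGAAGT, present in 2.44% of all windows on either strand, was in none of the 5 genes' windows.
Bhlhe41: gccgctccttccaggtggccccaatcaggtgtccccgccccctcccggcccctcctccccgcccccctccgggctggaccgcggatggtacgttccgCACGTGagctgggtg

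Bhlhe40, the partner repressor, also on chromosome 6 (108660629 to 108666925, plus strand), was at 76.8, 82.6 and 115 CPM in Sdha-KO replicates 1 to 3 and at 41.4, 123 and 97.4 CPM in wildtype replicates 1 to 3. The wildtype libraries held both the lowest and the highest value. The log2 fold change was 0.06 with a 95% interval of -1.12 to 1.24 (edgeR adjusted p = 1.00). The count of Bhlhe41 over that of Bhlhe40, which does not depend on scaling between libraries, was 2.01, 3.05 and 1.71 in Sdha-KO replicates 1 to 3, against 3.90, 1.05 and 1.07 in wildtype replicates 1 to 3. Sdha-KO was higher in batches 2 and 3 and lower in batch 1. Exons of Bhlhe40 overlap an antisense transcript, so its count is uncertain too.

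Cebpb, on chromosome 2 (167688915 to 167690418, plus strand), had the narrowest interval of the 8 tested genes. It was at 449, 399 and 374 CPM in Sdha-KO replicates 1 to 3 and at 406, 437 and 290 CPM in wildtype replicates 1 to 3. The log2 fold change was 0.11 with a 95% interval of -0.57 to 0.79 (edgeR adjusted p = 1.00). Exons of Tmem189 lie on the opposite strand over Cebpb, so reads of the 2 genes may be mixed.

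Spi1, encoding PU.1, on chromosome 2 (91082390 to 91115756, plus strand), was at 757, 331 and 350 CPM in Sdha-KO replicates 1 to 3 and at 1070, 346 and 464 CPM in wildtype replicates 1 to 3. In both genotypes the batch 1 library stood well above the others. Sdha-KO was the lower library in 3 of 3 batches, with log2 differences of -0.50, -0.07 and -0.41. Such an order was seen in 19.9% of all tested genes and did not hold with scaling by library totals alone. The fitted log2 fold change was -0.39 with a 95% interval of -1.39 to 0.62 (edgeR adjusted p = 1.00). Of 2227 tested genes with a mean of at least 50 CPM, those whose level followed Spi1 most closely over the 6 libraries were Polr2l, Gnai2 and Orai1 (Pearson r of log2 CPM 0.99, 0.98 and 0.98), against a median r of -0.15. All these values come from the same 6 libraries, with the batch 1 pair apart, and are a description only.

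Maf, on chromosome 8 (115682942 to 115707794, minus strand), was near the limit of detection. It had 0, 49 and 43 counts in Sdha-KO replicates 1 to 3, against 0, 7 and 10 counts in wildtype replicates 1 to 3. In batches 2 and 3 this was 9.11 and 6.41 CPM in Sdha-KO and 1.55 and 1.27 CPM in wildtype, so both Sdha-KO libraries lay above both wildtype libraries. The counts of 0 in batch 1 allow up to 0.250 CPM in Sdha-KO replicate 1 and 0.368 CPM in wildtype replicate 1 (3 counts, counting error only). Maf could be tested in 10 of the 18 alternative fits, where its log2 fold change was positive in 10 and past the threshold in 0. Without both batch 1 libraries it was 2.45 with a 95% interval of -1.14 to 6.04 (edgeR adjusted p = 0.689), an interval that holds both 0 and large positive values. Exons of Maf overlap an antisense transcript.

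**Figure D2:**
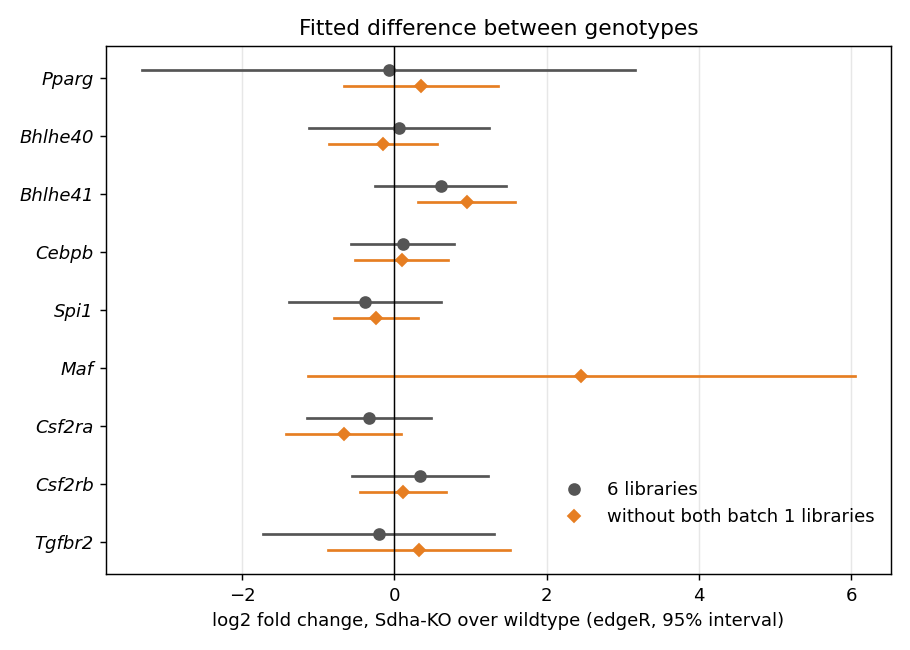
Fitted log2 fold change of each gene, Sdha-KO over wildtype, with 95% intervals from edgeR, over 6 libraries (grey) and without both batch 1 libraries (orange). Maf was not tested over 6 libraries. The interval of Pparg spans -3.31 to 3.16 with 6 libraries, and that of Bhlhe41 lies above 0 only without the batch 1 libraries.

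The 2 chains of the GM-CSF receptor, Csf2ra on chromosome 19 (61223957 to 61228429, minus strand) and Csf2rb on chromosome 15 (78325752 to 78353847, plus strand), did not pass either. Csf2ra, the ligand-specific alpha chain, was at 681, 438 and 255 CPM in Sdha-KO replicates 1 to 3 and at 624, 443 and 667 CPM in wildtype replicates 1 to 3. Only the batch 3 pair was far apart (log2 difference -1.39, against 0.12 in batch 1 and -0.02 in batch 2). Csf2rb, the signalling beta chain, was at 625, 243 and 307 CPM in Sdha-KO replicates 1 to 3 and at 417, 237 and 276 CPM in wildtype replicates 1 to 3. Sdha-KO was the higher library in 3 of 3 batches (0.58, 0.04 and 0.15), as in 11.4% of all tested genes. The log2 fold changes were -0.34 for Csf2ra (95% interval -1.15 to 0.48) and 0.34 for Csf2rb (95% interval -0.55 to 1.22), both with an edgeR adjusted p of 1.00. The count of Csf2ra over that of Csf2rb was 1.09, 1.80 and 0.831 in Sdha-KO replicates 1 to 3, against 1.496, 1.87 and 2.41 in wildtype replicates 1 to 3. It was lower in Sdha-KO in each batch, though Sdha-KO replicate 2 lay above wildtype replicate 1; this ratio was chosen after its values were seen and was not tested.

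Csf2rb has a neighbouring near-copy, Csf2rb2, which in mice encodes a beta chain that serves the interleukin-3 receptor. Csf2rb2 had 1, 173 and 244 counts in Sdha-KO replicates 1 to 3 and 265, 166 and 216 in wildtype replicates 1 to 3. It made up 0.0134%, 11.7% and 10.6% of the reads of both genes in Sdha-KO and 7.22%, 13.4% and 9.05% in wildtype replicates. The longest annotated Csf2rb transcript (4900 bases) shares 18.4% of its 50-base stretches with Csf2rb2, but 0 of 451 within its last 500 bases, where reads of a 3' kit concentrate. Shorter annotated isoforms differ in this: one of 2083 bases shares 60 of 451 (13.3%) in its last 500 bases and one of 397 bases shares 131 of 348 (37.6%), so reads of the pair may be mixed in part.

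Tgfbr2, the receptor chain that binds TGF-beta, on chromosome 9 (116084293 to 116175360, minus strand), was at 28.7, 105 and 37.6 CPM in Sdha-KO replicates 1 to 3 and at 82.8, 69.7 and 44.9 CPM in wildtype replicates 1 to 3. The Sdha-KO libraries held both the highest and the lowest values. The log2 fold change was -0.21 with a 95% interval of -1.72 to 1.31 (edgeR adjusted p = 1.00), and the batches disagreed in sign (-1.51, 0.59 and -0.26).

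**Figure D3:**
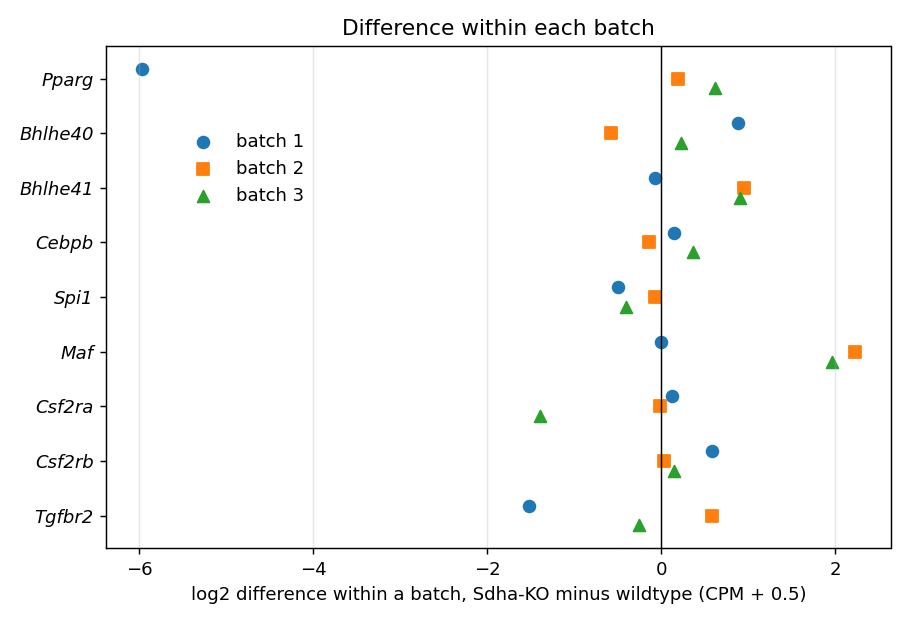
Log2 difference of each gene within each batch, Sdha-KO minus wildtype, of CPM plus 0.5. Points right of 0 are higher in Sdha-KO. Pparg differs by -5.97 in batch 1 and by 0.19 and 0.62 in batches 2 and 3, Csf2rb is right of 0 in all 3 batches, and Spi1 left of 0 in all 3; with library totals alone Spi1 is not.

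Tgfbr1, the signalling partner of Tgfbr2, stood further apart between genotypes than Tgfbr2. It was at 6.76, 45.7 and 28.3 CPM in Sdha-KO replicates 1 to 3 and at 189, 132 and 98.5 CPM in wildtype replicates 1 to 3, with no overlap. The log2 fold change was -2.38 (SE 0.699, edgeR adjusted p = 1.00), so it did not pass with 6 libraries. Without both batch 1 libraries it was -1.63 (edgeR adjusted p = 0.194), and -1.65 with the replicate block as well (edgeR adjusted p = 0.00406). Of the 27 genes of the TGF-beta pathway list 19 were tested, 11 were positive and none passed with 6 libraries (median log2 fold change 0.05). Tgif1, which encodes a corepressor of SMAD signalling, was at 202, 83.9 and 103 CPM in Sdha-KO and at 23.8, 34.4 and 32.3 CPM in wildtype replicates 1 to 3 (log2 fold change 2.10, SE 0.576, edgeR adjusted p = 0.931), and passed only without batch 1 and with the block (edgeR adjusted p = 0.0205). The ligand gene Tgfb2 was at 0, 0 and 2.38 CPM in Sdha-KO and at 33.3, 9.99 and 7.77 CPM in wildtype replicates. The other 3 of the 4 most abundant genes of the list overlapped between genotypes. Furin, a protease that matures TGF-beta, was at 380 ± 209 CPM in Sdha-KO and 348 ± 198 CPM in wildtype libraries (SD, n = 3 each). Ski, a SMAD corepressor gene, and Nrros, which encodes an anchor of latent TGF-beta, had log2 fold changes of -0.50 and 0.49. Siglecf, Itgam, Tgif1, Tgfb2 and all genes named from here on outside the 4 most abundant of a list were chosen after their values were seen.

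Downstream of the GM-CSF receptor, 9 of 18 tested genes were positive and none passed (20 genes listed, median log2 fold change -0.10). Without both batch 1 libraries 14 of 18 were positive (median 0.35, against -0.02 and 49.3% positive over all tested genes), none past the threshold. The ligand gene Csf2 had no count in any library. Pim1, a kinase gene induced through STAT5, was at 288, 521 and 453 CPM in Sdha-KO replicates 1 to 3 and at 136, 192 and 282 CPM in wildtype replicates 1 to 3. Every Sdha-KO library was above every wildtype one, by little (log2 fold change 1.05, SE 0.383, edgeR adjusted p = 1.00). The feedback inhibitor gene Socs3 was likewise separated, at 95.8, 134 and 190 CPM in Sdha-KO and at 0.123, 35.5 and 51.2 CPM in wildtype replicates. The Src-family kinase gene Lyn was separated in the other direction, at 122 ± 97.5 CPM in Sdha-KO and 225 ± 24.7 CPM in wildtype libraries (SD, n = 3 each). Sdha-KO replicate 1 was lowest, at 13.3 CPM, and without it the Lyn log2 fold change was -0.35, against -0.88 with it. The adaptor gene Grb2 and the phosphatase gene Ptpn6 overlapped between genotypes (log2 fold changes 0.04 and -0.53). Pim1 and Socs3 missed the threshold without both batch 1 libraries (edgeR adjusted p = 0.25 and 0.0919). With the replicate block as well, they were the 2 genes of this list that passed (edgeR adjusted p = 0.00695 and 0.000283), beside 3.01% of all tested genes. The limits of that fit given for Bhlhe41, sex among them, hold here too.

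Partners and targets of PPAR-gamma went both ways. Of 25 listed genes 22 were tested, 13 were positive and none passed (median log2 fold change 0.25). Sdha-KO lay wholly above wildtype for 4 of them, Fabp5, Nr1h3, Olr1 and Tgm2, and wholly below for 4, among them Cd36, Cidec and Ech1, beside 5.04% above and 9.27% below over all tested genes. Among the first, the oxidised-lipid receptor gene Olr1 was at 683 ± 81.0 CPM in Sdha-KO and 416 ± 157 CPM in wildtype libraries, and Nr1h3, encoding the oxysterol receptor LXR-alpha, at 88.7 ± 51.8 and 23.5 ± 6.25 CPM (SD, n = 3 each). Among the second, the fatty acid transporter gene Cd36 was at 220 ± 87.1 CPM in Sdha-KO and 406 ± 102 CPM in wildtype libraries, and the lipid droplet gene Cidec at 47.4 ± 22.8 and 124 ± 22.1 CPM (SD, n = 3 each). Fabp4, a fatty acid binding protein gene and a standard readout of PPAR-gamma, was at 20.4, 206 and 122 CPM in Sdha-KO replicates 1 to 3 and at 30.8, 51.5 and 45.5 CPM in wildtype replicates 1 to 3. As with Pparg itself, the low Sdha-KO value was that of batch 1. The most abundant targets, Lpl and Plin2, differed by log2 fold changes of 0.21 (SE 0.274) and 0.28 (SE 0.271), and the corepressor gene Ncor1 by -0.23 (SE 0.302). Without both batch 1 libraries Fabp4, Tgm2 and Cidec missed the threshold (edgeR adjusted p = 0.129, 0.306 and 0.145). With the replicate block as well they passed (edgeR adjusted p = 0.00086, 0.0499 and 0.000811), beside 3.01% of all tested genes.

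Markers of the 2 fates were set beside the regulators. Their lists were chosen with earlier results of these data known. Of 30 alveolar macrophage markers 29 were tested and 14 were positive. Sdha-KO lay wholly above wildtype for 7 and wholly below for 7, beside 5.04% above and 9.27% below over all tested genes. Among the first, Ctsk averaged 437 CPM in Sdha-KO and 82.5 CPM in wildtype libraries (edgeR adjusted p = 0.0706). Among the second, Ear2 averaged 216 and 782 CPM (edgeR adjusted p = 0.122). Only 1, the eosinophil-associated ribonuclease gene Ear1, passed, as lower in Sdha-KO (132 ± 17.7 CPM, against 633 ± 92.1 CPM in wildtype, SD, n = 3 each, edgeR adjusted p = 0.0261). The Ear1 log2 fold change missed the threshold with the replicate block (edgeR adjusted p = 0.374), with library totals alone (0.193), with a stricter filter (0.0854), and without Sdha-KO replicate 1 (0.0752), Sdha-KO replicate 3 (0.382) or wildtype replicate 1 (0.091). Exons of Ear1 overlap a pseudogene, so its count is uncertain. The summed level of the alveolar list was 19960 to 23850 CPM in Sdha-KO libraries and 17250 to 19170 CPM in wildtype libraries. Much of that sum was the chemokine gene Ccl6 (9072 ± 2056 CPM in Sdha-KO and 4705 ± 1938 CPM in wildtype; SD, n = 3 each), and the sum does not describe the list as a whole. Of 21 interstitial macrophage markers 17 were tested, 16 were positive and none passed (median log2 fold change 1.64, against -0.13 for all tested genes). Of these 17, 8 were at 0 in both batch 1 libraries. The 3 untested markers with counts averaged lower in Sdha-KO, with Ms4a7 at 0.124 CPM in Sdha-KO and 6.53 in wildtype, Pf4 at 0.547 and 3.27, and Stab1 at 0.969 and 2.27 on average. Folr2, a defining interstitial marker, had no count. The summed level of the list overlapped between genotypes, at 386, 1091 and 1110 CPM in Sdha-KO replicates 1 to 3 and 597, 478 and 709 CPM in wildtype replicates 1 to 3.

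Single interstitial markers differed in how firmly they stood apart. The chemokine receptor gene Ccr2, also a monocyte marker, was at 79.0, 27.7 and 68.1 CPM in Sdha-KO and at 5.39, 13.1 and 21.5 CPM in wildtype replicates. Tmem176b was at 54.4, 84.4 and 107 CPM in Sdha-KO and at 0, 25.3 and 10.1 CPM in wildtype replicates, an uncertain count because its exons overlap Tmem176a. The complement gene C1qb and Aif1 were at 0 in both batch 1 libraries and were higher in the other Sdha-KO libraries, C1qb at 35.1 and 38.2 CPM against 2.22 and 4.71 CPM in wildtype. The receptor gene Csf1r had a negative estimate (113 ± 25.3 CPM in Sdha-KO and 235 ± 134 CPM in wildtype, SD, n = 3 each), and exons of Hmgxb3 overlap it. Cd14, Cd93 and Apoe overlapped between genotypes, with log2 fold changes of 0.42, 1.02 and 1.43. Without both batch 1 libraries 16 of 19 tested markers were positive and none passed (median log2 fold change 1.44, against -0.02 for all tested genes). With the replicate block as well, Aif1, C1qb, Cd93 and Tmem176b passed (edgeR adjusted p = 0.049, 0.00974, 0.00612 and 0.00345), beside 3.01% of all tested genes.

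Markers of other lung cells differed between libraries too. Conventional dendritic cell markers, with counts for 10 of 10 genes, summed to 5.17, 86.3 and 212 CPM in Sdha-KO replicates 1 to 3 and to 19.97, 21.1 and 40.0 CPM in wildtype replicates 1 to 3, highest, as for Maf, in Sdha-KO libraries of batches 2 and 3. Much of that sum was Ccr7 (5.01, 27.5 and 96.7 CPM in Sdha-KO replicates) and Cd209a (0, 37.4 and 17.9 CPM). Not all of the list followed that order. Batf3 was at 0, 0 and 26.1 CPM in Sdha-KO and at 1.23, 9.76 and 11.1 CPM in wildtype replicates. Xcr1 was at 0.167, 0.372 and 15.9 CPM in Sdha-KO and at 18.7, 2.66 and 5.09 CPM in wildtype replicates. Neutrophil markers (6 of 7) summed to 164 to 218 CPM in Sdha-KO and 73.9 to 107 CPM in wildtype libraries, although the sort gate should leave neutrophils out. Within that list Csf3r went the other way, at 0.0834, 0 and 0 CPM in Sdha-KO replicates 1 to 3 and at 0, 5.55 and 4.46 CPM in wildtype replicates 1 to 3. Monocyte markers (5 of 5) summed to 40.9 to 129 CPM in Sdha-KO and 68.4 to 133 CPM in wildtype libraries. That sum joins genes that went opposite ways without overlap. Ccr2 averaged 58.3 CPM in Sdha-KO and 13.3 CPM in wildtype libraries, and Fn1 30.0 and 93.6 CPM. The type 2 epithelial list (6 of 6) summed to 27.9 to 280 CPM in Sdha-KO and 46.4 to 167 CPM in wildtype libraries, and the erythroid list (7 of 7) to 147 to 519 and 191 to 337 CPM. B cell markers reached at most 27.6 CPM, T cell markers 9.04 CPM and endothelial markers 32.2 CPM in any library, and the eosinophil genes Prg2 and Epx had no count. The part of these cells in the levels of Maf and the interstitial markers was not tested, and in sorted bulk RNA fewer cells of a type and less RNA per cell cannot be told apart.

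**Figure D4:**
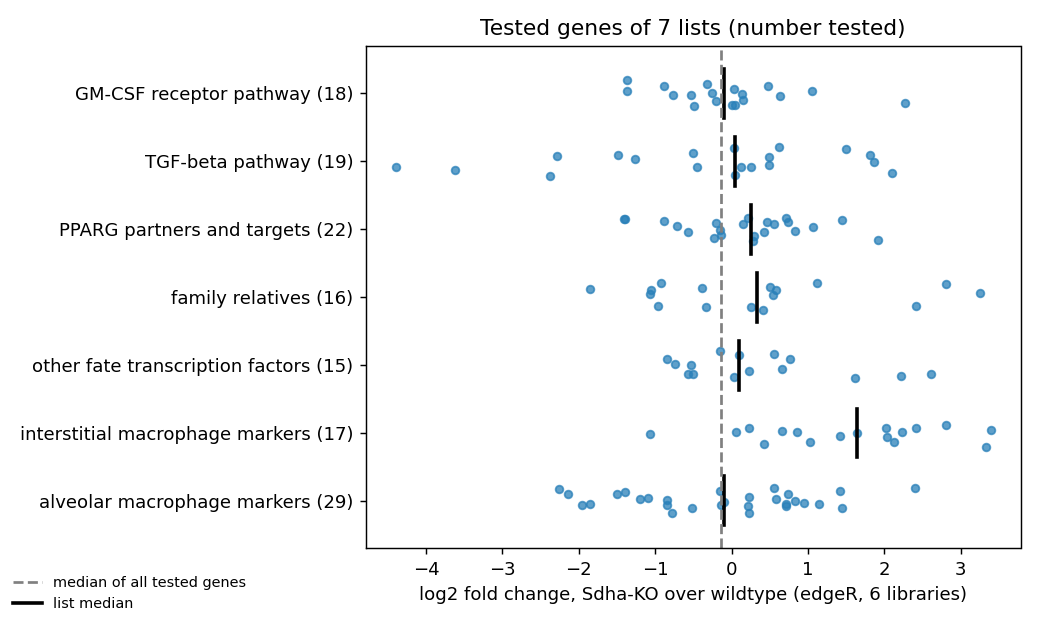
Log2 fold change, Sdha-KO over wildtype, of each tested gene (points) in 7 lists, with the list median (black) and the median of all tested genes (dashed). The interstitial macrophage markers have a median of 1.64 and the other lists lie between -0.10 and 0.33; vertical scatter within a list carries no meaning.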

How the data were processed

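Alveolar macrophage RNA was sequenced from 3 Sdha-KO and 3 wildtype libraries made with a QuantSeq 3' mRNA kit, per the labels' protocols. The authors deposited raw counts per gene symbol. Per the submitters' processing notes, Bowtie2, bedtools and the mm10 genome were used; versions, annotation, strand setting and molecular identifiers are not given in sources used here. Rows that repeat a symbol (44) were kept apart.

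Genotypes were compared with edgeR 4.0.16 under R 4.3.3: a filterByExpr minimum count of 10, TMM scaling, then a robust quasi-likelihood fit on genotype alone and its F-test, with Benjamini-Hochberg adjustment over all 9963 tested genes. The script was tested on simulated data. The conditions it had to meet were set at a smaller spread between libraries than these data have, so they do not show what the fit can find here. CPM values use TMM-scaled library sizes. Standard errors are the size of the log2 fold change over the square root of F. The members and lists were chosen with earlier results of these data known. The text names the 9 genes, Sdha, Csf2rb2, each list's called genes (with no call, the 4 of highest level), and others picked with their values in view, as the text states; some genes of the lists are not reported here. DESeq2 1.42.0 and limma 3.58.1 served as alternatives.

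Replicate numbers pair the samples, since the labels repeat each as a batch. Deviations from group means correlated at 0.15, 0.12 and 0.11 for libraries of the same number and at -0.15 to 0.10 for others. The replicate block was an alternative. Gene positions and overlaps are from GENCODE M21 (mm10).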

Additional observations from a re-analysis of the deposited data

How the results depend on the processing

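None of the 9 genes passed under any alternative but one: without both batch 1 libraries and with the replicate block, 1 (Bhlhe41) did. Bhlhe41 kept a positive estimate in all 18 alternative fits. The count over all tested genes, 5 in the reported fit, was 9 with library totals alone (which moved the median of all genes from -0.13 to 0.05), 48 with no filter, 0 when every library of a group needed 10 counts (255 had an unadjusted p below 0.05), 21 with DESeq2, 79 with limma-voom, 46 with quality weights and 0 at an adjusted p of 0.01. With the replicate block it was 0 in edgeR (296 at an unadjusted p under 0.05) and 72 in DESeq2. Without both batch 1 libraries it was 27, and 324 with the block. Leaving out single replicates gave 0 to 13. The alveolar markers, with 1 call, had 6 with no filter, limma-voom or quality weights, 2 with DESeq2 (with or without the replicate block), 0 with the stricter filter, the edgeR block or the lower p, 3 without batch 1, 15 with the block as well, and 0 to 3 with single replicates left out. With library totals the 1 call was Ctsk, not Ear1. Other lists, with no call, had under that last fit (no batch 1, replicate block) 2 for GM-CSF, 2 for TGF-beta, 3 for PPARG, 2 for fate factors (1 with no filter) and 4 for interstitial markers. Over all tested genes 3.01% passed that fit. With library totals 3 of the 9 genes were higher and 0 lower in every batch.

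Signs turned for several small estimates, and the cause was not tested. The log2 fold change of Pparg was 0.073 with library totals, 0.42 with quality weights, 0.35 without batch 1, 0.42 with the block as well and -0.88 to 0.51 without single replicates, while it was -3.82 with limma-voom (adjusted p = 0.096) and -1.10 (edgeR) and -1.11 (DESeq2) with the replicate block over 6 libraries. Bhlhe40 was -0.12 with quality weights, -0.15 without batch 1, -0.16 with the block and -0.28 to 0.39 without single replicates. Tgfbr2 was 0.002 with library totals, 0.22 with quality weights, 0.33 without batch 1, 0.18 with the block and -0.99 to 0.12 without single replicates. Csf2ra was 0.019 with library totals. Without single replicates Cebpb ranged from -0.053 to 0.22, Spi1 from -0.88 to 0.24, Csf2rb from -0.18 to 0.60, the Csf2rb2 log2 fold change from -1.005 to 0.089, Grb2 from -0.13 to 0.27, Furin from -0.42 to 0.69 and Klf4 from -0.11 to 0.20. Without batch 1, and with the replicate block as well, Csf2rb2 was 0.10 and 0.12, Nrros -0.068 and -0.059, and Klf4 -0.084 and -0.094. Quality weights gave -0.12 for Nrros and -0.13 for Klf4. Limma-voom gave a Grb2 log2 fold change of -0.028, and -0.67 for Cd14 and -0.82 for Itgam. Library totals gave 0.006 for Ncor1 and 0.036 for Cebpa. The replicate block gave -0.14 for Cd14 in edgeR and in DESeq2.

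The spread between libraries limits these estimates. The common biological coefficient of variation was 1.40 over 6 libraries and 0.677 without both batch 1 libraries. Changes of the 9 genes could therefore pass unseen with 3 libraries a genotype, and for Pparg, with its wide interval, large ones too. Tgfbr1, 5.19-fold lower in Sdha-KO and without overlap, did not pass with 6 libraries. Pparg and Csf2rb2 rest most on Sdha-KO replicate 1, and Maf on fewer than 50 counts in any library.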

Other observations

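Other transcription factors of macrophage fate and relatives of the 9 genes gave no call with 6 libraries. Of 17 other fate factors 15 were tested and 9 were positive (median log2 fold change 0.09). Atf3, a stress-induced repressor gene, was at 212, 620 and 584 CPM in Sdha-KO replicates 1 to 3 and at 35.05, 152 and 276 CPM in wildtype replicates 1 to 3, higher in Sdha-KO in each batch (log2 fold change 1.61, SE 0.709, edgeR adjusted p = 1.00). Id3, which encodes an inhibitor of helix-loop-helix factors and was chosen after its values were seen, was at 68.5, 95.6 and 53.7 CPM in Sdha-KO and at 0.368, 24.6 and 10.6 CPM in wildtype replicates, with no overlap (edgeR adjusted p = 1.00). Without both batch 1 libraries Atf3 and Id3 missed the threshold (edgeR adjusted p = 0.145 and 0.254). With the replicate block as well they passed (edgeR adjusted p = 0.00118 and 0.00413), beside 3.01% of all tested genes. Atf3 also passed over 6 libraries with no filter (edgeR adjusted p = 0.0164). Klf4, a self-renewal factor gene, was at 524 ± 80.7 CPM in Sdha-KO and 512 ± 107 CPM in wildtype libraries (SD, n = 3 each). Klf4, Id2 and Zeb2 overlapped between genotypes, with log2 fold changes of 0.03, 0.77 and 0.55.

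Of 25 family relatives 16 were tested and 9 were positive (median log2 fold change 0.33). Cebpa and Cebpg, relatives of Cebpb, had log2 fold changes of -0.33 (SE 0.438) and 0.58 (SE 0.519), and Maff, a small relative of Maf, 0.50 (SE 0.588). Cebpe, Mafa, Nrl, Bhlhe22 and Bhlhe23 had no count in any library.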
